A study of Mus musculus with 4 samples.

Results

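The clustered protocadherins are cell adhesion genes that lie in 3 neighbouring groups, alpha, beta and gamma, on mouse chromosome 18. They were taken from the deposited gene table as the rows whose symbol starts with Pcdha, Pcdhb or Pcdhg, which gave 58 of 56393 genes, 14 alpha, 22 beta and 22 gamma. The genes were chosen by symbol, but the set was selected on the count ratios of these same libraries, in which gamma members were already known to differ widely with added glucose. All values below are therefore descriptions, no test was made, and nothing is read from the count of members that stood apart.

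RNA was sequenced from the conditionally immortalised mouse podocyte line MPC in 4 libraries, 1 per group, so there were no replicates, although the design text counts 4 exposed and 4 unexposed samples. Podocytes are the epithelial cells that cover the glomerular capillaries of the kidney. The groups were sh-JAML/HG (hairpin against Jaml, D-glucose to a final 40 mmol/L, given as 24 h in the design text), sh-JAML (the same hairpin, no added glucose), sh-NC/HG (control hairpin, same glucose) and sh-NC (control hairpin, no added glucose). All 4 shared the line and its differentiation without interferon-gamma. The labels name no osmotic control, no clone and no separate culture, and the table's columns for the control-hairpin libraries name no hairpin, so they were matched by name to sh-NC/HG and sh-NC.

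Each of the many alpha and gamma genes starts with its own large first exon, which has its own promoter and encodes the extracellular and transmembrane parts of the protein. That exon is spliced to 3 small exons at the end of the cluster, which all members of the cluster share and which encode a common cytoplasmic tail. Beta genes consist of the large exon alone. In neurons each cell switches on a small, largely random subset of these promoters, with the insulator protein CTCF and cohesin looping the chosen promoter to a distant enhancer, and the resulting protein mix gives cells an adhesive identity. The C-type members (Pcdhac1, Pcdhac2, Pcdhgc3, Pcdhgc4 and Pcdhgc5) are used more evenly across neurons than the others.

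Deposited counts summed to 83551812 in sh-JAML/HG, 79330461 in sh-JAML, 94341975 in sh-NC/HG and 80599238 in sh-NC. Levels are given in CPM scaled with TMM factors, or in CPM per kb of exon where genes are compared with each other. Low values piled up at multiples of 4 but were not confined to them. As an approximation 4 units were taken as 1 fragment, and 3 fragments (12 units, 0.129 to 0.151 CPM) as the floor. Intervals in parentheses are approximate 95% counting intervals on units divided by 4. They cover neither the variation between cultures nor the division of reads among genes that share exons. Jaml had a count of 0 in all 4 libraries, so the hairpin's effect on its target could not be measured. Among podocyte markers Synpo stood between 172 and 247 CPM and Nes between 394 and 620 CPM, whereas Nphs1 stood between 0.193 and 0.440 CPM. The 9 listed tubule markers summed to between 851 and 1333 CPM, nearly all of it from Cdh16, Lrp2 and Pax8. Between 4 and 5 of them were at or under the floor in each library, with Umod and Slc34a1 at 0 throughout.

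Neurons are the cell type best known for these genes, and traces of most neuron markers were found mainly in the libraries without added glucose. Of 12 neuron markers, 9 were at 0 in sh-JAML/HG and 10 in sh-NC/HG, against 1 in sh-JAML and 1 in sh-NC. At or under the floor were 11 in sh-JAML/HG, 5 in sh-JAML, 11 in sh-NC/HG and 6 in sh-NC. Without Tubb3, a tubulin gene that stood between 9.76 and 18.8 CPM, the remaining 11 summed to 0.118 CPM in sh-JAML/HG against 2.24 CPM in sh-JAML, and to 0.0857 CPM in sh-NC/HG against 1.82 CPM in sh-NC. Snap25, a synaptic vesicle fusion gene, was the highest of the 11 at 0.486 CPM in sh-JAML and stood at 0.277 CPM in sh-NC, with 0 in both glucose libraries. These levels were far under those of the leading beta and gamma genes, and the part of this RNA in the values below was not tested.

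The 3 clusters occupied chromosome 18 of mm10 from 36930184 to 37187661 (alpha), 37264938 to 37524479 (beta) and 37661793 to 37841873 (gamma), all on the plus strand. They differed in how much of their sequence can be told apart. Beta genes shared a median of 0% of their exon bases with another annotated gene, with a highest value of 63.5% in Pcdhb12. Gamma genes shared a median of 45.3% and alpha genes 53.6%, which includes the common exons at the end of the cluster. Beta genes were not fully distinct in sequence either, since up to 12% of the 50-base words of a beta transcript also occurred in another gene's transcripts. How reads of the shared exons were divided among the alpha or gamma genes is not given in the sources used here, so counts of single alpha and gamma members, and sums over them, are uncertain.

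**Figure D1:**
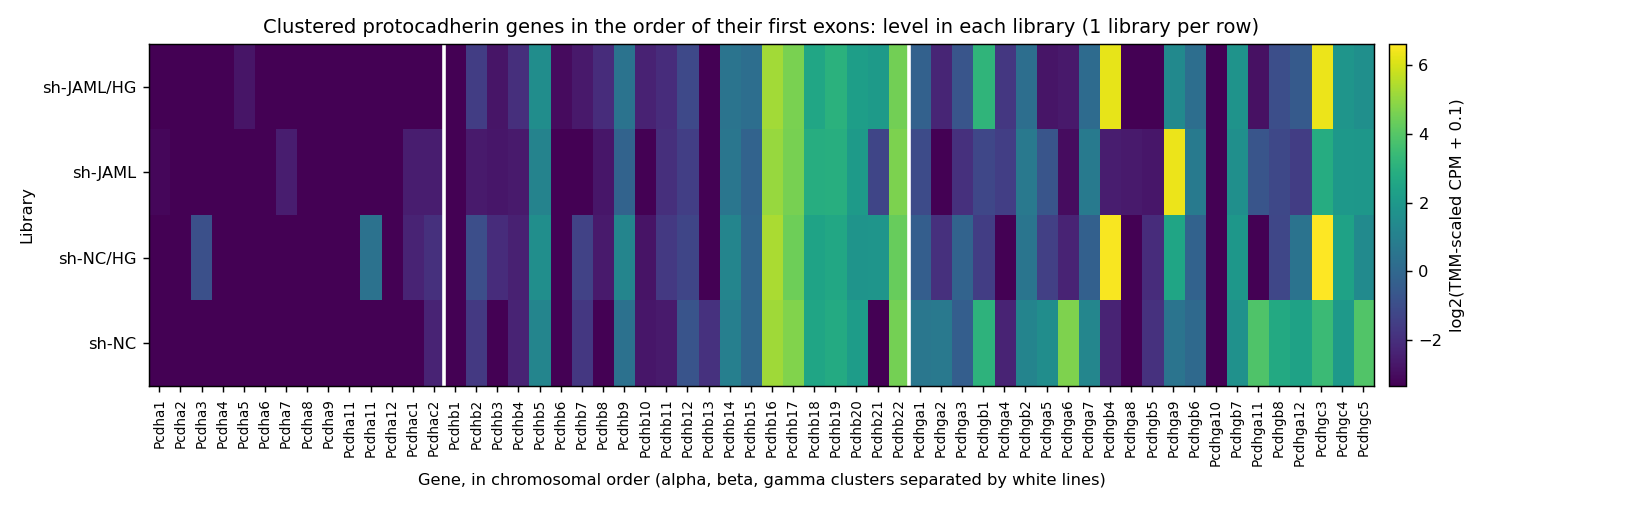
The heat map shows log2(TMM-scaled CPM + 0.1) of all 58 genes in each of the 4 libraries, with genes in chromosomal order and white lines between the alpha, beta and gamma clusters. The symbol Pcdha11 names 2 rows of the table. The alpha genes were almost silent, and the leading beta genes Pcdhb16, Pcdhb17 and Pcdhb22 were alike in all 4 libraries. The highest gamma gene was not the same in every library.

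Alpha genes were barely expressed. Of the 14 members, 7 were at 0 in all 4 libraries and 11 never passed the floor. The summed alpha count was 4 in sh-JAML/HG, 19 in sh-JAML, 182 in sh-NC/HG and 8 in sh-NC. The sh-NC/HG library thus held almost all alpha counts, and it held them in few genes. Pcdha11 (ENSMUSG00000102206) had 117 units there and Pcdha3 had 41 units, with 0 in each of the other 3 libraries for both. Against sh-NC this made Pcdha11 at least 8.31-fold higher and Pcdha3 at least 2.91-fold higher, with 0 set to the floor of 12 units per library. The other row named Pcdha11 was at 0 throughout.

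Of the C-type alpha genes, Pcdhac2, which in mice guides the spacing of serotonergic axons, had 0 units in sh-JAML/HG, 6 in sh-JAML, 15 in sh-NC/HG and 8 in sh-NC. Pcdhac1 had 0, 6, 9 and 0 units in that order of libraries. All but the 15 units of Pcdhac2 lay at or under the floor. No alpha gene reached the mean count of 50 over the 4 libraries that was required for ratios across all genes.

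Beta genes were the stable group. Their summed level was 114.9 CPM in sh-JAML/HG against 107.0 CPM in sh-JAML, a 1.07-fold higher sum (1.012 to 1.14). It was 109.2 CPM in sh-NC/HG against 110.4 CPM in sh-NC, 1.011-fold lower (0.955 to 1.07). Between hairpins the beta sum was 1.05-fold higher in sh-JAML/HG relative to sh-NC/HG (0.995 to 1.11) and 1.03-fold lower in sh-JAML relative to sh-NC (0.972 to 1.10). The 4 libraries thus lay within a narrow band for this cluster.

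Within the beta cluster, promoters near the 3' end carried nearly all counts. The last 11 genes, Pcdhb12 to Pcdhb22, held 95.7% of beta counts in sh-JAML/HG, 97.0% in sh-JAML, 94.2% in sh-NC/HG and 96.3% in sh-NC. Pcdhb16 (37477814 to 37483038) led in every library, with 3196, 2692, 3774 and 2904 units in sh-JAML/HG, sh-JAML, sh-NC/HG and sh-NC, and a mean of 7.09 CPM per kb. Its share of the beta counts was 32.9% (31.0 to 34.8) in sh-JAML/HG, 31.3% (29.4 to 33.4) in sh-JAML, 37.0% (35.2 to 39.0) in sh-NC/HG and 33.1% (31.1 to 35.1) in sh-NC.

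Its neighbour Pcdhb17 came next at 5.13 CPM per kb, with 2073 units in sh-JAML/HG, 1879 in sh-JAML, 1966 in sh-NC/HG and 2114 in sh-NC. Pcdhb22, the last beta gene, followed at 3.42 CPM per kb with 1887, 2027, 1827 and 1852 units in the same order. In sh-NC/HG relative to sh-NC, Pcdhb17 was 1.26-fold lower (1.11 to 1.43) and Pcdhb22 1.19-fold lower (1.04 to 1.36). At the other end of the cluster, Pcdhb1 had no count in any library, and 4 beta genes never passed the floor.

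Pcdhb21 (37513621 to 37518325) was the exception among the beta genes. It had 353 units in sh-JAML/HG against 26 units in sh-JAML, and 327 units in sh-NC/HG against 0 in sh-NC. Both glucose libraries stood above both libraries without added glucose, and the level was 12.9-fold higher in sh-JAML/HG (5.85 to 34.4) and at least 23.2-fold higher in sh-NC/HG, with 0 set to the floor. Between hairpins with glucose it differed little, 1.19-fold higher in sh-JAML/HG relative to sh-NC/HG (0.871 to 1.63). The gene overlaps Pcdhb22 and shares 9.7% of its exon bases with it, and 11.3% of its 50-base words occur in another gene, so its counts are uncertain to that extent.

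The gamma cluster as a sum was higher with added glucose in both hairpin lines. It stood at 182.2 CPM in sh-JAML/HG against 104.1 CPM in sh-JAML, 1.75-fold higher (1.66 to 1.85). In the control line it stood at 212.0 CPM in sh-NC/HG against 106.4 CPM in sh-NC, 1.99-fold higher (1.89 to 2.10). The libraries without added glucose were alike, 1.02-fold lower in sh-JAML relative to sh-NC (0.962 to 1.09). With glucose, sh-JAML/HG was 1.16-fold lower than sh-NC/HG (1.12 to 1.21).

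Most of this difference went with either of 2 genes, Pcdhgb4 and Pcdhgc3. Without Pcdhgb4 the gamma sum was 107.5 CPM in sh-JAML/HG against 104.0 CPM in sh-JAML, 1.03-fold higher (0.973 to 1.10). In the control line it was 121.1 CPM in sh-NC/HG against 106.3 CPM in sh-NC, 1.14-fold higher (1.08 to 1.21). Leaving out Pcdhgc3 in place of Pcdhgb4 gave 1.05-fold (0.985 to 1.12) and 1.20-fold (1.13 to 1.27). Leaving out both turned the direction, and the remaining 20 genes were 3.58-fold lower in sh-JAML/HG relative to sh-JAML (3.26 to 3.93) and 4.00-fold lower in sh-NC/HG relative to sh-NC (3.64 to 4.41). In the Jaml-hairpin line this turn rested on Pcdhga9, described below. Without it as well, the remaining 19 genes were 1.35-fold higher in sh-JAML/HG relative to sh-JAML (1.18 to 1.55) and 5.15-fold lower in sh-NC/HG relative to sh-NC (4.64 to 5.74). These left-out sums were chosen after the values were seen.

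**Figure D2:**
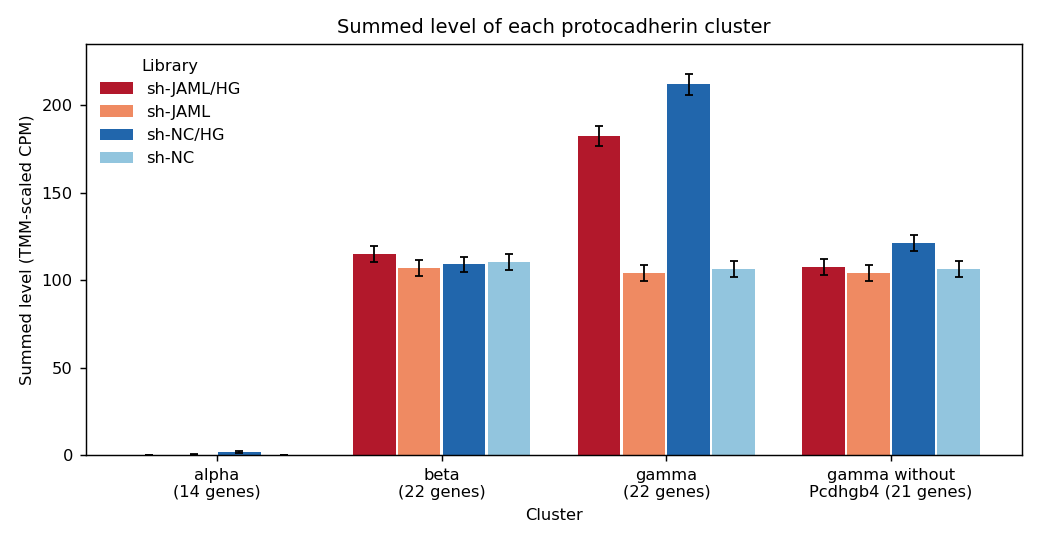
Bars give the summed level of each cluster in TMM-scaled CPM, 1 library per bar, with approximate 95% counting intervals. The beta sums lie between 107.0 and 114.9 CPM, and the gamma sums of the glucose libraries, 182.2 and 212.0 CPM, come down to 107.5 and 121.1 CPM once Pcdhgb4 is left out.

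Pcdhgb4 (37720369 to 37841870), a B-type gamma gene, had 6316 units in sh-JAML/HG against 6 units in sh-JAML, and 8488 units in sh-NC/HG against 8 units in sh-NC. The ratio was 999-fold (233 to 13890) in the Jaml-hairpin line and 904-fold (250 to 7472) in the control line, from levels under the floor. Pcdhgc3 (37806364 to 37841873), the C-type member that is also known outside the nervous system and that restrains Wnt signalling through Axin1, had 6798 units in sh-JAML/HG against 560 in sh-JAML, and 9071 units in sh-NC/HG against 858 in sh-NC. It was 11.5-fold (9.69 to 13.8) and 9.01-fold (7.83 to 10.4) higher.

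These 2 genes tracked each other closely in the glucose libraries. Pcdhgc3 exceeded Pcdhgb4 by 482 units in sh-JAML/HG and by 583 units in sh-NC/HG, so the ratio of their counts was 1.08 and 1.07. Pcdhgc3 itself had 560 and 858 units in sh-JAML and sh-NC, where Pcdhgb4 was under the floor. Pcdhgb4 shares 38.3% and Pcdhgc3 66.9% of their exon bases with another annotated gene. With other clustered protocadherin genes alone, the shares are 38.3% for Pcdhgb4 and 38.5% for Pcdhgc3. The files hold no read positions, and whether the same fragments were counted for both genes was not tested.

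The remaining C-type genes behaved differently from Pcdhgc3. Pcdhgc4, which supports neuron survival in mice, had 296 units in sh-JAML/HG, 310 in sh-JAML, 476 in sh-NC/HG and 320 in sh-NC, and its highest level was 1.46 times its lowest. Pcdhgc5 had 254, 302, 244 and 1185 units in that order. Only sh-NC stood out for Pcdhgc5. Relative to it, sh-NC/HG was 5.70-fold (4.31 to 7.64) and sh-JAML 3.96-fold (3.07 to 5.17) lower.

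The assignment of gamma counts to members differed between libraries. In sh-JAML/HG, Pcdhgc3 held 44.1% (42.5 to 45.7) and Pcdhgb4 41.0% (39.4 to 42.6) of the gamma counts. In sh-JAML, Pcdhga9 alone held 75.8% (73.9 to 77.6) and Pcdhgc3 6.70% (5.67 to 7.86). In sh-NC/HG the pattern was that of the other glucose library, with 45.8% (44.5 to 47.2) in Pcdhgc3 and 42.9% (41.5 to 44.3) in Pcdhgb4.

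The sh-NC library was the only 1 of the 4 with a broad mix. Pcdhga6 held 23.9% (22.1 to 25.8), Pcdhgc5 14% (12.6 to 15.6), Pcdhga11 13.8% (12.3 to 15.3), Pcdhgc3 10.1% (8.88 to 11.5), Pcdhgb1 7.92% (6.80 to 9.15) and Pcdhgb8 5.97% (4.995 to 7.06). Expressed as the inverse of the summed squared shares, which counts equally used members, the gamma counts came from 2.73 members in sh-JAML/HG, 1.72 in sh-JAML, 2.52 in sh-NC/HG and 8.15 in sh-NC. The same measure for the beta cluster was 4.93, 4.69, 4.64 and 4.54. This measure does not say which members were used. Among beta genes Pcdhb16 led in all 4 libraries, and the share of Pcdhb21 was 3.63% in sh-JAML/HG, 0.303% in sh-JAML, 3.21% in sh-NC/HG and 0% in sh-NC.

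**Figure D3:**
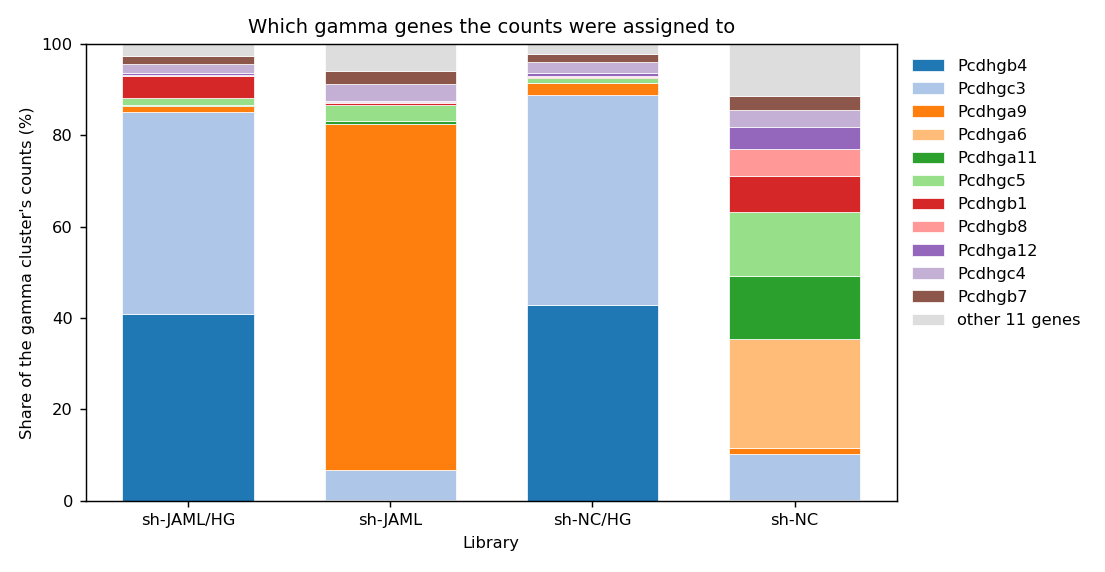
Stacked bars give the share of the gamma cluster's counts assigned to each gene in each library, in percent. Pcdhgb4 and Pcdhgc3 together fill 85.1% of sh-JAML/HG and 88.7% of sh-NC/HG, Pcdhga9 fills 75.8% of sh-JAML, and no gene exceeds 23.9% in sh-NC.

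Pcdhga9 (37736936 to 37841870) had 215 units in sh-JAML/HG against 6332 in sh-JAML, and 521 units in sh-NC/HG against 104 in sh-NC. The single high library was sh-JAML, and the glucose pairs went opposite ways, 31.0-fold lower (23.7 to 41.5) in the Jaml-hairpin line and 4.27-fold higher (2.79 to 6.78) in the control line. The 19 gamma genes other than Pcdhgb4, Pcdhgc3 and Pcdhga9 summed to 24.6 CPM in sh-JAML/HG, 18.2 CPM in sh-JAML, 18.3 CPM in sh-NC/HG and 94.2 CPM in sh-NC. As a sum outside those 3 genes, only sh-NC was high. This did not hold for each gene, since Pcdhgb1 stood at 8.89 CPM in sh-JAML/HG and 8.42 CPM in sh-NC.

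Pcdhgb1 also went opposite ways, with 752 units in sh-JAML/HG against 27 in sh-JAML, and 23 units in sh-NC/HG against 670 in sh-NC. It was 26.4-fold higher (12.4 to 68.0) with glucose in the Jaml-hairpin line and 34.2-fold lower (15.1 to 97.0) in the control line. Pcdhga12 did so at lower counts, with 51 units in sh-JAML/HG against 20 in sh-JAML (2.42-fold higher, 0.806 to 8.69), and 120 units in sh-NC/HG against 411 in sh-NC (4.02-fold lower, 2.65 to 6.25). Its interval in the Jaml-hairpin line includes no difference.

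Members that were lower with glucose in both lines were led by their sh-NC values. Pcdhga11 had 3 units in sh-JAML/HG against 41 in sh-JAML, and 0 units in sh-NC/HG against 1165 in sh-NC. It was 14.4-fold lower (1.69 to 1788) in the Jaml-hairpin line and at least 114-fold lower in the control line, with 0 set to the floor. Its 3 units in sh-JAML/HG lie under the floor, so the size of the difference in that line is known only within its interval. Pcdhga5 had 4 units in sh-JAML/HG against 41 in sh-JAML, and 25 units in sh-NC/HG against 226 in sh-NC, and was 10.8-fold (1.55 to 468) and 10.6-fold (4.65 to 29.4) lower, with its 4 units also under the floor. Both were also lower with the Jaml hairpin at basal glucose, 28.7-fold (15.5 to 59.8) for Pcdhga11 and 5.56-fold (2.83 to 12.1) for Pcdhga5 in sh-JAML over sh-NC.

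The leading gene of sh-NC, Pcdhga6 (37707039 to 37841873), had 5 units in sh-JAML/HG, 2 in sh-JAML, 9 in sh-NC/HG and 2024 in sh-NC. It was named after its values were seen, as was Pcdhgb8, which had 36, 28, 31 and 505 units in that order. Both were high in sh-NC alone. Pcdhgb7, also named after its values were seen, had 278, 239, 348 and 253 units, and its highest level was 1.25 times its lowest, the smallest spread of any gamma gene past the count minimum used below.

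Members at least 2-fold apart were counted among the 27 that had a mean count of at least 50, 11 beta and 16 gamma genes. Pcdhga1 with a mean count of 68.25 was the lowest inside this limit, and Pcdhga3 with 45.75 the highest outside it. In sh-JAML/HG over sh-JAML, 5 members were higher and 3 lower, where 1.31% and 1.56% of all 14187 genes past the same minimum were. In sh-NC/HG over sh-NC, 4 were higher and 9 lower, where 4.65% and 3.27% of all genes were. These were the contrasts that drew attention to the genes, so nothing is read from the counts.

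Between hairpins, 2 members were higher and 3 lower in sh-JAML/HG over sh-NC/HG, where 2.81% and 4.78% of all genes were. In sh-JAML over sh-NC, 2 were higher and 8 lower, where 1.31% and 1.4% of all genes were. The pairs that contain sh-NC/HG had more genes apart in all, 7.92% and 7.59%, than the pairs without it, 2.88% and 2.71%. The sh-NC library enters both sh-NC/HG over sh-NC and sh-JAML over sh-NC, so its broad gamma mix sits in both of those counts.

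By cluster, 1 of 11 beta genes, Pcdhb21, was past 2-fold with glucose in each line. Of the 16 gamma genes, 4 were higher and 3 lower in sh-JAML/HG over sh-JAML, and 3 were higher and 9 lower in sh-NC/HG over sh-NC. Higher in both glucose pairs were Pcdhgb4, Pcdhgc3 and Pcdhb21 (0.331% of all genes were), lower in both were Pcdhga5 and Pcdhga11 (0.261%), and opposite were Pcdhgb1, Pcdhga9 and Pcdhga12 (0.557%). Lower with the Jaml hairpin at both glucose levels were Pcdhga5 and Pcdhga12 (0.338%), and 0 members were higher at both (0.169%). For Pcdhga5 with glucose, 4 units in sh-JAML/HG against 25 in sh-NC/HG, the interval of 0.699 to 259 includes no difference. Opposite in the hairpin pairs were 3 gamma genes (0.451%), Pcdhgb1, Pcdhga9 and Pcdhga11, the last with 3 and 0 units in the glucose libraries, both under the floor.

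**Figure D4:**
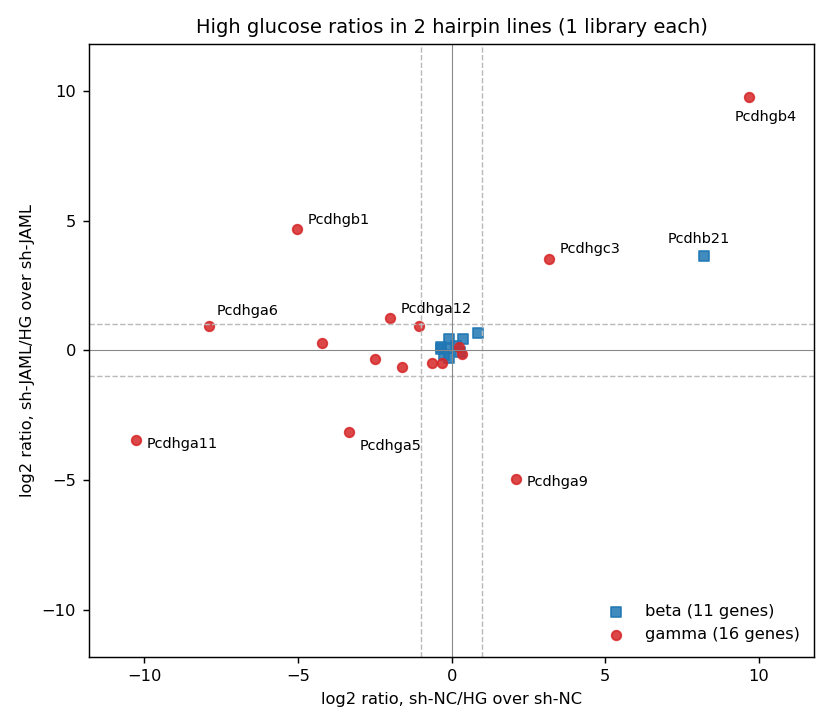
Each point is a gene with a mean count of at least 50, placed by its log2 ratio with glucose in the control line (horizontal) and in the Jaml-hairpin line (vertical), 1 library per group, with dashed lines at 2-fold. Beta genes other than Pcdhb21 lie near the origin, and gamma genes lie in all 4 quadrants. Points resting on a count of 0, such as Pcdhga11 and Pcdhb21, depend on the prior count of 1.

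The spread over the libraries also differed within the clusters. Among the 10 beta genes past the minimum other than Pcdhb21, the highest of the 4 libraries was 1.21 to 2.72 times the lowest, with a median of 1.33, close to the 1.3 of all genes. Of the 16 gamma genes 13 were at least 2-fold and 9 at least 10-fold apart between their extremes, where 13.6% and 1.01% of all genes were. All 7 A-type genes past the minimum were at least 3.04-fold apart, and 4 of 6 B-type and 2 of 3 C-type genes at least 2-fold. Some gamma genes passed the minimum only through a library where they were high. Pcdhga6 did so with 2024 units in sh-NC against 5 in sh-JAML/HG, 2 in sh-JAML and 9 in sh-NC/HG. A wide spread of such genes follows partly from the minimum, and nothing is read from these counts.

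These beta genes shared at most 6.9% of their exon bases with another gene, and the gamma genes 37.9% to 73.6%. The part of shared exons in the spread was not tested.

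**Figure D5:**
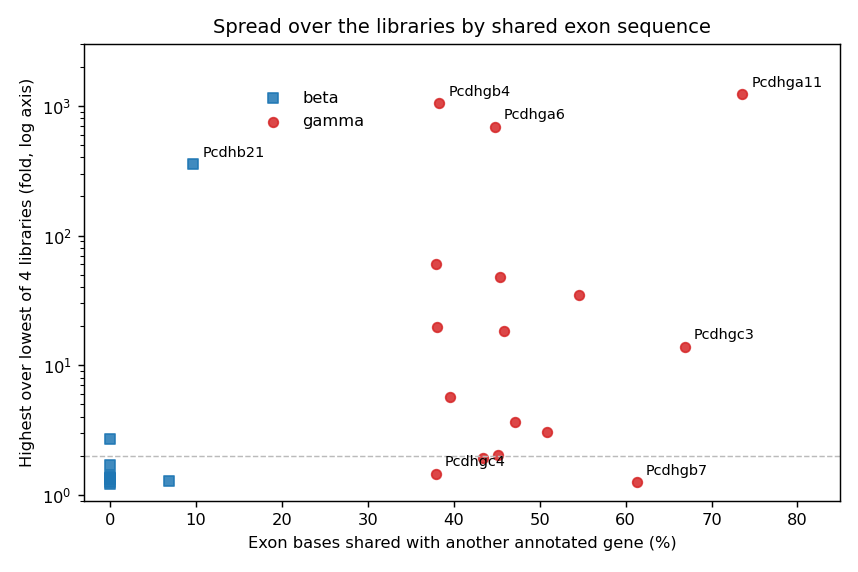
Each point is a beta or gamma gene with a mean count of at least 50, with the percent of its exon bases shared with another annotated gene on the horizontal axis and the fold between its highest and lowest library, on a log axis, on the vertical. The dashed line marks 2-fold. Beta genes sit low at the left except Pcdhb21, and gamma genes start at 1.25-fold. The points of Pcdhga11 and Pcdhb21 rest on a count of 0 and so on the prior count of 1, and those of Pcdhgb4 and Pcdhga6 on lowest counts under the floor.

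Neighbouring genes were measured to compare with the members. Taf7, a general transcription factor gene between the beta and gamma clusters, had 945 units in sh-JAML/HG, 747 in sh-JAML, 872 in sh-NC/HG and 792 in sh-NC. Slc25a2, a mitochondrial carrier gene beside it, had 22, 32, 24 and 12 units. Diaph1, an actin regulator gene just past the gamma cluster, stood at 105.1, 97.0, 107.5 and 114.3 CPM in that order of libraries. Of the 17 flanking genes past the minimum, 0 were at least 2-fold apart in any of the 4 pairs, where 2.71% to 7.92% of all genes were, so a count of 0 is near the background. Arap3, a flanking gene under the minimum that was named after its values were seen, had 33 units in sh-JAML/HG against 25 in sh-JAML, and 115 units in sh-NC/HG against 14 in sh-NC.

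Annotated transcripts that overlap the members had low counts. The 3 long protein-coding models that run from the alpha into the gamma cluster, Gm37013, Gm37388 and Gm42416, were at 0 in all 4 libraries. Pcdhga10, which shares 100% of its exon bases with another annotated gene, was also at 0 throughout. How reads of shared exons were divided is not given, so these counts of 0 do not show absence. BC037039, an antisense gene over the start of Pcdhgc3, had 78 units in sh-JAML/HG against 4 in sh-JAML, and 68 units in sh-NC/HG against 132 in sh-NC. The labels do not say that strand was kept, so its reads cannot be told apart from those of Pcdhgc3.

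Genes for chromatin and transcription regulators, some of them known to act on these promoters, were listed, and all were expressed past the minimum. Of 36 listed regulators, 0 were at least 2-fold apart in either glucose pair, where 2.88% and 7.92% of all genes were, with log2 ratios between -0.40 and 0.48 in sh-JAML/HG over sh-JAML and between -0.41 and 0.73 in sh-NC/HG over sh-NC. Ctcf stood at 128.1, 141.2, 115.4 and 131.6 CPM in sh-JAML/HG, sh-JAML, sh-NC/HG and sh-NC, and the cohesin subunit gene Rad21 at 732.5, 714.1, 956.5 and 673.3 CPM. Smchd1, which encodes a chromatin protein that silences the clusters in mice, stood at 144.5, 142.3, 159.8 and 145.7 CPM.

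Setdb1, whose histone methyltransferase product limits CTCF binding at the locus in mouse neurons, stood at 128.0, 129.1, 118.1 and 127.2 CPM in that order. Rest, a repressor of neuronal genes, stood at 110.5, 103.2, 107.3 and 102.0 CPM. Of the DNA methyltransferases, Dnmt3b, which methylates clustered protocadherin promoters in mice, was low at 5.76, 7.63, 8.10 and 6.71 CPM. Dnmt3a was the single regulator past 2-fold in any pair, at 41.4 CPM in sh-JAML/HG against 120.7 CPM in sh-NC/HG and 40.0 CPM in sh-JAML against 120.6 CPM in sh-NC. It was lower with the Jaml hairpin at both glucose levels, by log2 ratios of -1.54 and -1.59. Of all genes, 7.59% were at least 2-fold apart between hairpins with glucose and 2.71% without added glucose, and 0.338% were lower in both. Nothing is therefore read from a count of 1 among 36 regulators. Whether Dnmt3a bears on the values of the members was not tested.

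Genes for proteins that bind or process the protocadherin tails were listed as well. Of 23 measured partners, among them the focal adhesion kinase gene Ptk2 and the protease gene Adam10, 0 were at least 2-fold apart in any pair, against the same 2.71% to 7.92% of all genes, and nothing is read from so short a list. Of the 10 protocadherins and related cadherins outside the clusters that passed the minimum, sh-NC/HG over sh-NC put 2 past 2-fold upward and 2 downward, and sh-JAML/HG over sh-JAML put 1 past it, downward, where 7.92% and 2.88% of all genes were past it either way. The hairpin pair with glucose put 1 past it upward and 3 downward, and the pair without added glucose 0. None of these 10 was past 2-fold the same way in both glucose pairs or both hairpin pairs. In these bulk libraries, more cells using a gene and more RNA of it per cell cannot be told apart.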

How the data were processed

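Per the labels, TruSeq RNA libraries were made from total RNA. The submitters' processing notes name CASAVA 1.8, TopHat2 2.0.6 and genome build mm10. Which tool and gene models produced the counts, and how shared exons were handled, is not given in the sources used here. Deposited was a table of the authors' estimated counts per Ensembl gene, as whole numbers with no scaling between libraries. Low values at multiples of 4 were 1.61 to 1.79 times as frequent as their even neighbours.

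Symbols, exons and positions came from GENCODE M21, which named 55394 of 56393 genes. Counts were scaled with edgeR 4.0.16 TMM factors (R 4.3.3). Log2 ratios used a prior count of 1, and were taken for the 14187 genes averaging 50 or more units over the libraries. Intervals were computed on counts divided by 4 (Poisson for sums, Clopper-Pearson for shares and, conditional on the sum, for ratios). Counts that were not multiples of 4 gave fractional fragments, so the intervals are not exact. The ratio functions were tested on simulated data. Python 3.11.15, numpy 2.4.6, pandas 2.3.3, scipy 1.17.1 and matplotlib 3.10.9 were used, and DESeq2 1.42.0 for alternative size factors. With 1 library per group no test was made. Members, lists and the rule for named genes (the top 3 per length in each cluster, C-type members, and members past 2-fold in both pairs of a kind) were chosen with earlier results of these data known.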

Additional observations from a re-analysis of the deposited data

Results flagged for a closer look

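Gamma genes with opposite glucose differences in the 2 hairpin lines drew attention, each past 2-fold in both lines. The difference between the lines was not tested, since each line has 1 library per glucose level. The log2 ratio of Pcdhgb1 was 4.68 in sh-JAML/HG over sh-JAML and -5.03 in sh-NC/HG over sh-NC. That of Pcdhga9 was -4.95 in sh-JAML/HG over sh-JAML and 2.08 in sh-NC/HG over sh-NC. For Pcdhga12 it was 1.24 in sh-JAML/HG over sh-JAML and -2.00 in sh-NC/HG over sh-NC. The interval of Pcdhga12 in sh-JAML/HG over sh-JAML, 0.806-fold to 8.69-fold, includes no difference.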

How the results depend on the processing

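Counts of members at least 2-fold higher and lower are given here in the order sh-JAML/HG over sh-JAML, sh-NC/HG over sh-NC, sh-JAML/HG over sh-NC/HG and sh-JAML over sh-NC. Total counts or DESeq2 size factors in place of TMM changed no count by over 1.5 times, moved no sum beyond its interval and turned no named ratio. Without the count minimum, 14, 10, 6 and 10 members were higher and 9, 12, 10 and 15 lower. These include differences between counts under the floor, such as Pcdha1 with 1 unit in sh-JAML against 0 in sh-NC. At a mean count of at least 200, 3, 3, 2 and 1 were higher and 2, 4, 1 and 4 lower. Among members with under 10% shared exon bases, which hold no alpha or gamma gene, 1, 1, 0 and 1 were higher and 0 were lower in all 4 pairs. At 4-fold, 1 member was higher and 1 lower in sh-JAML/HG over sh-NC/HG, and a prior count of 4 gave 1 higher there. The share of all genes was not computed at these other settings, so nothing is read from these counts.

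Log2 ratios of summed counts depended on single members. Without the member with the highest mean count, the gamma ratio was 0.07 in sh-JAML/HG over sh-JAML and 0.26 in sh-NC/HG over sh-NC, beside 0.81 and 0.99 with all members, and the ratio over all members was 0.08, 0.13 and, in sh-JAML/HG over sh-NC/HG, -0.06. The beta ratio without it was -0.10 in sh-NC/HG over sh-NC and 0.17 in sh-JAML/HG over sh-NC/HG. Without Pcdhgb4, a choice made after seeing the data, the gamma ratio was 0.05 and 0.19 and that over all members 0.07, 0.10 and -0.06. Under 10% shared bases, the ratio over all members was 0.10, -0.01 and 0.07. Per exon length, sh-NC/HG over sh-NC gave 0.91 for gamma and 0.52 for all members.

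Leading shares without the C-type genes were 78.3%, 88.1%, 84.9% and 33.2% for gamma in sh-JAML/HG, sh-JAML, sh-NC/HG and sh-NC, and 85.7% for alpha in sh-JAML. Per exon length the gamma share in sh-NC was 26.8%. No paired analysis was possible because each group has 1 library and no test was made. Each ratio rests on 2 libraries, so neither could be left out. Alpha counts are too low for ratios outside sh-NC/HG.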
